A study of Mus musculus with 18 samples.

Results

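RNA bound to tagged ribosomes of Camk2a-expressing neurons was compared with the RNA of the whole tissue in control mice, which bore no tumor. The comparison used 6 of the 18 libraries of the series, 3 input libraries and 3 immunoprecipitated (IP) libraries, taken by their labels (treatment control, fraction Input or IP) and not by any measured value. All mice of the series carried the genotype Camk2a-Cre-Rpl22HA. The other libraries are input and IP of mice with glioma cells implanted in the cortex, left untreated (3 and 3 libraries, called tumor) or given the mTOR inhibitor AZD8055 (3 and 3 libraries, called AZD), and they are used here only where they show how control differs. The labels used here give no age, strain, dose or length of treatment. The tissue label of the libraries is brain.

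In the Rpl22HA (RiboTag) mouse, Cre recombinase switches a ribosomal protein gene, Rpl22, to a form that carries an HA tag, and antibodies to HA then pull down ribosomes with the mRNA they carry. The Camk2a promoter drives Cre mainly in excitatory neurons of the forebrain, so the pulled-down RNA is read as mRNA on ribosomes of those cells, while the input holds RNA of every cell type and every cell compartment. No library from mice without Cre or without the tag is analysed here, so the level of RNA that sticks to the beads has no measured value. In such bulk libraries, fewer cells of a type and less RNA per cell cannot be told apart.

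Input libraries held 15300374 to 17839717 counts and IP libraries 23097718 to 34178417, and 14958 genes passed the filter on low counts. The input libraries belong to the library set named PD013 in the headers and the IP libraries to PD015, so fraction and library set cannot be told apart within control. The AZD libraries, input and IP alike, belong to a different set, PD028. The labels do not state that the 3 libraries of a group came from separate mice, so p-values reflect library-to-library spread that may be technical only. Levels are given in CPM, counts scaled to library size, after TMM scaling of the 6 control libraries, in the order of replicate numbers 1, 2 and 3, and log2 values are of IP over input with the standard error of the fit.

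Of the 14958 genes tested, 2676 (17.9%) were higher in IP and 2826 (18.9%) were lower at an adjusted p under 0.05 (edgeR's quasi-likelihood test, Benjamini-Hochberg). Counts of called members in the gene lists below are to be read beside these shares. All IP libraries lay above all input libraries for 3646 genes (24.4%) and below them for 3749 (25.1%). A lack of overlap named below for single genes is thus common among all genes tested. The first principal component of the 6 libraries, with 77.7% of the variance, separated IP from input. Most differences were small. The median absolute log2 difference among the called genes was 0.47, and with a fold of at least 1.5 also required, 548 genes (3.66%) were higher and 1457 (9.74%) lower. At a fold of at least 2 the counts were 192 (1.28%) and 667 (4.46%). Scaling by plain library totals in place of TMM turned the split to 1721 higher and 3706 lower, 31.7% higher among called genes against 48.6%. Without replicate number 3 of both fractions 3424 genes were called in place of 5502, and the fit of all 18 libraries called 3668.

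**Figure D1:**
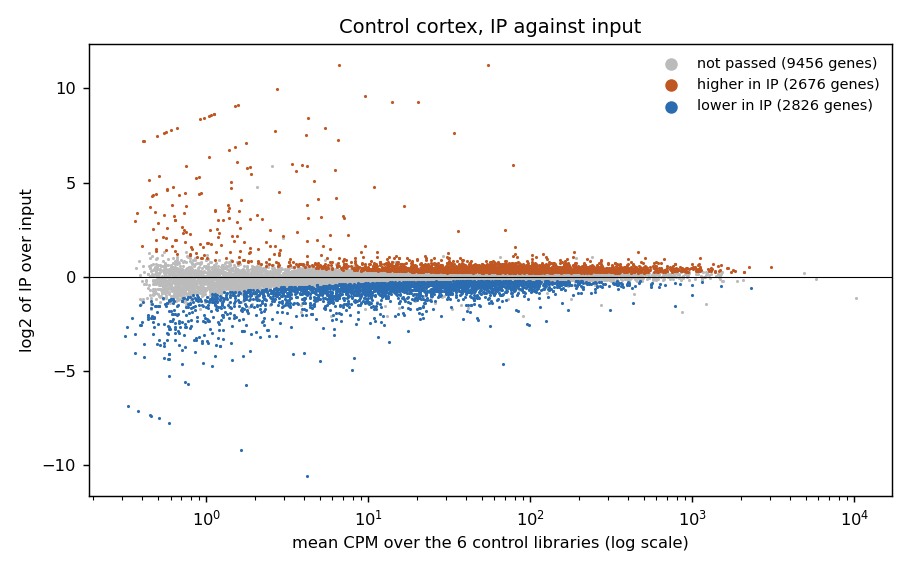
Log2 of IP over input in control (y axis) against mean CPM over the 6 control libraries (x axis, log scale) for the 14958 genes tested, 1 point a gene, coloured by the call at an adjusted p under 0.05. The 2676 genes higher in IP and the 2826 lower lie mostly close to the zero line, and most points far above it have a low mean CPM.

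Excitatory neuron genes were higher in IP, by small amounts. Of 26 such genes, 12 were higher and 0 were lower, against 17.9% and 18.9% of all genes tested, and their median log2 was 0.22 against -0.02 for all genes. By replicate number, the medians were 0.32, 0.21 and 0.20. Camk2a encodes a kinase of excitatory synapses, and its promoter drives Cre here. It was at 898, 1243 and 946 CPM in input and at 1796, 1601 and 1562 CPM in IP. All 3 IP libraries lay above all 3 input libraries, a 1.61-fold difference (log2 0.68 ± 0.12, adjusted p = 5.01e-04). Bhlhe22, a transcription factor of cortical projection neurons, was at 30.5, 36.4 and 47.7 CPM in input and 73.5, 63.9 and 68.6 CPM in IP (log2 0.85 ± 0.14, adjusted p = 7.05e-04). The ranges of Bhlhe22 did not overlap either, and its log2 was the larger of the pair. Mef2c, a transcription factor of excitatory neurons, rose with a log2 of 0.42 ± 0.098 (adjusted p = 0.00377). Kcnv1, a modifier subunit of potassium channels, rose with a log2 of 0.51 ± 0.12 (adjusted p = 0.00506).

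Slc17a7, the vesicular glutamate transporter that defines cortical excitatory neurons, was at 968, 816 and 795 CPM in input and 1069, 778 and 834 CPM in IP. Its ranges overlapped and it did not pass the test (log2 0.06 ± 0.12, adjusted p = 0.747). Chn1, a Rac-regulating protein abundant in these neurons, was at 1162 ± 86.6 CPM in input and 1258 ± 147 CPM in IP (SD, n = 3; adjusted p = 0.399). Rpl22 itself, whose protein carries the tag, was at 59.4, 48.9 and 49.7 CPM in input and 54.8, 50.1 and 48.2 CPM in IP, with overlapping ranges (adjusted p = 0.754). The count of 12 excitatory genes fell to 5 with plain totals, to 6 without input replicate 2, without IP replicate 1 or without number 3, and to 2 in the fit of all 18 libraries. In that fit Camk2a (adjusted p = 0.169) and Mef2c (adjusted p = 0.179) lost their calls.

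**Figure D2:**
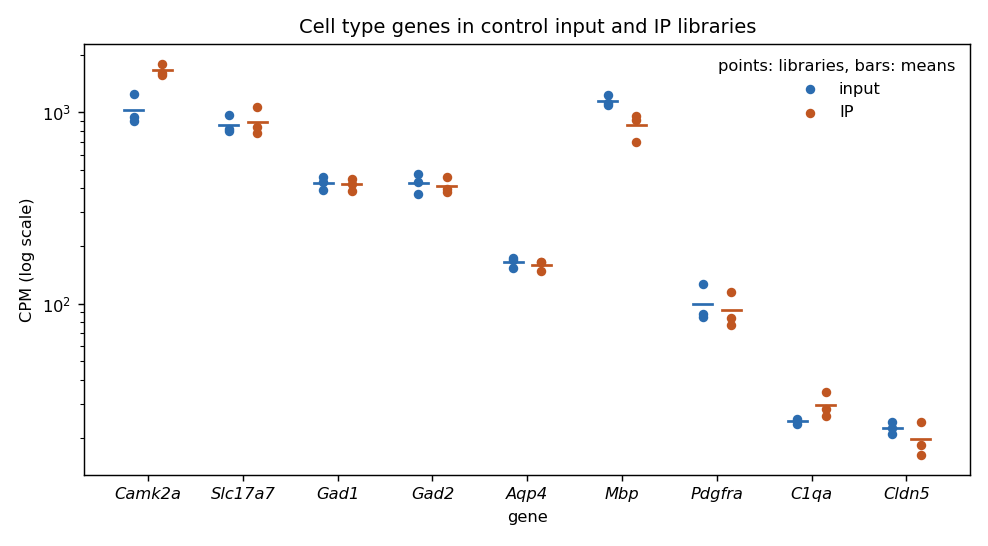
CPM (log scale) of 9 cell type genes in each of the 3 control input libraries (blue) and 3 control IP libraries (orange), with bars at the means. Camk2a lies higher in all IP libraries and Mbp lower, while the input and IP ranges of Slc17a7, Gad1, Gad2, Aqp4, Pdgfra and Cldn5 overlap. C1qa lies higher in all IP libraries, by an amount that did not pass the test.

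Genes that mark cortical layers and neighbouring regions moved unevenly. Of 10 layer 5 genes, 5 were higher and 0 lower, with a median log2 of 0.30, and 2 were higher without number 3 or in the fit of all 18 libraries and 3 with plain totals. Etv1, a transcription factor of layer 5 neurons, was at 36.6, 38.8 and 47.5 CPM in input and 66.7, 60.3 and 62.5 CPM in IP (log2 0.63 ± 0.099, adjusted p = 2.09e-04). Bcl11b (Ctip2), which specifies subcerebral projection neurons, had a log2 of 0.48 ± 0.091 (adjusted p = 8.95e-04, and 0.0943 in the fit of all 18 libraries). Both genes were higher in every IP library than in any input library.

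Of 12 layer 6 genes 1 was higher and 0 lower, with 3 higher under the block and 2 without IP replicate 2. The gene was Rprm, a cell cycle inhibitor gene used as a layer 6 marker, at 25.3 ± 2.77 CPM in input and 40.7 ± 2.09 CPM in IP (SD, n = 3; log2 0.69 ± 0.097, adjusted p = 7.97e-05). Tle4 and Foxp2, the layer 6 regulators with the highest levels among those that did not pass, had log2 values of 0.00 ± 0.081 and 0.13 ± 0.10. Of 8 layer 2/3 genes 1 was higher and 2 were lower (median log2 -0.09), and with the block 3 were lower. Calb1, the calcium buffer calbindin, rose (log2 0.37 ± 0.11, adjusted p = 0.0151), a call lost in the fit of all 18 libraries (adjusted p = 0.327), without IP replicate 3 (adjusted p = 0.0567) and without number 2 (adjusted p = 0.0545). Cux1, a homeodomain factor of upper layer neurons, fell (log2 -0.26 ± 0.077, adjusted p = 0.0152), with an adjusted p of 0.104 in the fit of all 18 libraries, and did not pass in 4 of the 9 fits without a library or a number. Otof, which encodes the calcium sensor otoferlin, was at 37.9, 41.1 and 35.8 CPM in input and 20.8, 25.7 and 19.8 CPM in IP (log2 -0.79 ± 0.11, adjusted p = 5.52e-05; 0.377 in the fit of all 18 libraries). Striatal markers were also measured. Over 12 of them the summed level was 1660.3 to 2197 CPM in input and 1596 to 2071 CPM in IP, and 1 rose and 1 fell, with 3 lower under the block and 2 without IP replicate 1, IP replicate 2 or number 1. Penk, the enkephalin precursor, rose (log2 0.50 ± 0.096, adjusted p = 9.16e-04) and Drd2, the D2 dopamine receptor, fell (log2 -0.60 ± 0.13, adjusted p = 0.00273). Both calls were lost in the fit of all 18 libraries, with adjusted p of 0.376 and 0.391.

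Markers of astrocytes and inhibitory neurons, which are not the cells in which the Camk2a promoter mainly drives Cre, were present in IP at summed levels near those of input. The 24 astrocyte genes summed to 10408 to 11601 CPM in input and 10227 to 11156 CPM in IP, and the 25 inhibitory neuron genes to 1981 to 2223 CPM in input and 1773 to 2022 CPM in IP. A large part of the astrocyte sum came from Slc1a2, a glutamate transporter gene, so its near equality leans on this gene. No marker of either list was at 0 in IP, and how far these transcripts enter the differences of other genes was not tested. Aqp4, the water channel of astrocyte endfeet, was at 153, 173 and 169.8 CPM in input and 149, 165 and 166 CPM in IP (log2 -0.05 ± 0.084, adjusted p = 0.705). Gad1, which makes GABA, was at 390.3, 456 and 434 CPM in input and 389, 447 and 424 CPM in IP (log2 -0.02 ± 0.091, adjusted p = 0.861). Gad2, the other GABA-synthesising enzyme, had a log2 of -0.05 ± 0.10 (adjusted p = 0.735). Input and IP ranges of all 3 genes overlapped.

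Among inhibitory neuron genes, 6 of 25 were lower and 2 higher, against 18.9% and 17.9% of all genes, with a median log2 of -0.21. Leaving out a library or number left 0 or 1 higher, the median was -0.01 without input replicate 2, and 3 were lower in the fit of all 18 libraries. Dlx1, a transcription factor of interneurons, was at 12.5, 16.6 and 10.9 CPM in input and 6.50, 8.33 and 6.73 CPM in IP (log2 -0.90 ± 0.16, adjusted p = 5.80e-04). Every IP library of Dlx1 lay below every input library. Npy, a peptide of interneurons, fell with a log2 of -0.70 ± 0.12 (adjusted p = 6.56e-04; 0.324 in the fit of all 18 libraries).

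Of 24 astrocyte genes, 3 were higher and 4 lower, counts that ran from 1 to 3 and from 3 to 5 when a library or number was left out. The median log2 was -0.03. Sox9, an astrocyte transcription factor, was higher in IP, at 12.8, 14.8 and 12.7 CPM in input and 23.1, 27.6 and 20.7 CPM in IP (log2 0.82 ± 0.12, adjusted p = 1.12e-04). Ntsr2, a neurotensin receptor found on astrocytes, was lower, at 43.1, 51.6 and 42.9 CPM in input and 24.5, 30.7 and 33.3 CPM in IP (log2 -0.64 ± 0.12, adjusted p = 7.36e-04; 0.0529 in the fit of all 18 libraries). The abundant glutamate transporter Slc1a2 was at 6032 ± 598 CPM in input and 5544 ± 142 CPM in IP (SD, n = 3; adjusted p = 0.357). Members of the list thus moved in both directions around a median near zero, and in the fit of all 18 libraries 1 was higher and 0 were lower.

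Of 24 oligodendrocyte genes 5 were lower and 0 higher, a share near the 18.9% of all genes called lower. Their median log2 was -0.05, and it was 0.03 without IP replicate 1 and -0.14 without IP replicate 3. The count lower was 8 with plain totals or with the replicate number as a block, and 3 without input replicate 2, without number 2 or in the fit of all 18 libraries. Hapln2, a link protein of the nodal matrix made by oligodendrocytes, was at 16.9, 16.9 and 16.2 CPM in input and 5.69, 8.55 and 7.25 CPM in IP (log2 -1.23 ± 0.14, adjusted p = 1.28e-05). Sox10, the transcription factor of the lineage, had a log2 of -0.72 ± 0.12 (adjusted p = 2.81e-04). Mbp, the myelin basic protein, was at 1092, 1225 and 1115 CPM in input and 697, 916 and 961 CPM in IP (log2 -0.42 ± 0.11, adjusted p = 0.01). Hapln2, Sox10 and Mbp had no overlap between fractions. The Mbp call was lost without input replicate 2 (adjusted p = 0.0544), without number 2 and in the fit of all 18 libraries (adjusted p = 0.491). Pdgfra, which marks oligodendrocyte precursors, was at 126, 88.1 and 85.2 CPM in input and 115, 84.3 and 77.5 CPM in IP and did not pass (adjusted p = 0.725). Of 16 precursor genes 3 were lower and 0 higher, also near the 18.9% of all genes called lower. The count lower was 7 under the block, 8 with plain totals, 1 without input replicate 2, IP replicate 3 or number 3, and 0 in the fit of all 18 libraries.

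Vascular genes were lower in IP. Of 23 endothelial genes 13 were lower and 0 higher (median log2 -0.49), and of 17 mural and fibroblast genes 7 were lower and 0 higher (median log2 -0.42). Slco1a4, an organic anion transporter of brain endothelium, was at 96.8, 112 and 119 CPM in input and 44.6, 60.9 and 63.8 CPM in IP (log2 -0.95 ± 0.13, adjusted p = 1.95e-04). Flt1, a VEGF receptor, fell with a log2 of -0.64 ± 0.12 (adjusted p = 0.00122). Every IP library lay below every input library for both genes. Myh11, the smooth muscle myosin, was at 16.1, 8.25 and 16.7 CPM in input and 4.08, 2.97 and 3.99 CPM in IP, 3.67-fold lower (log2 -1.88 ± 0.27, adjusted p = 6.93e-04). Abcc9, a channel subunit of pericytes, had a log2 of -0.74 ± 0.11 (adjusted p = 1.49e-04). Cldn5, the tight junction protein of the endothelium, did not pass (log2 -0.19 ± 0.13, adjusted p = 0.279); without IP replicate 3 its adjusted p was 0.0333. With the block 12 mural and fibroblast genes were lower, 4 without input replicate 1 and 11 without input replicate 2. In the fit of all 18 libraries 3 endothelial and 4 mural and fibroblast genes were lower, and Slco1a4 (adjusted p = 0.0956) and Flt1 (adjusted p = 0.0825) lost their calls.

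Of 25 microglia genes 10 were lower and 0 higher (median log2 -0.22), with 6 lower without input replicate 2, without number 1 or without number 2, and 1 in the fit of all 18 libraries. Mertk, a receptor kinase that microglia use in engulfing dead cells, was at 53.0, 53.2 and 52.0 CPM in input and 35.8, 45.2 and 39.7 CPM in IP (log2 -0.39 ± 0.092, adjusted p = 0.00393; 0.18 in the fit of all 18 libraries). C1qa, a complement subunit, had the opposite sign, at 25.1, 23.5 and 24.5 CPM in input and 28.0, 26.0 and 34.8 CPM in IP. Its ranges did not overlap, yet it did not pass (log2 0.28 ± 0.11, adjusted p = 0.0551), and it passed with the replicate number as a block (adjusted p = 0.0213) and without IP replicate 2 (adjusted p = 0.0217).

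**Figure D3:**
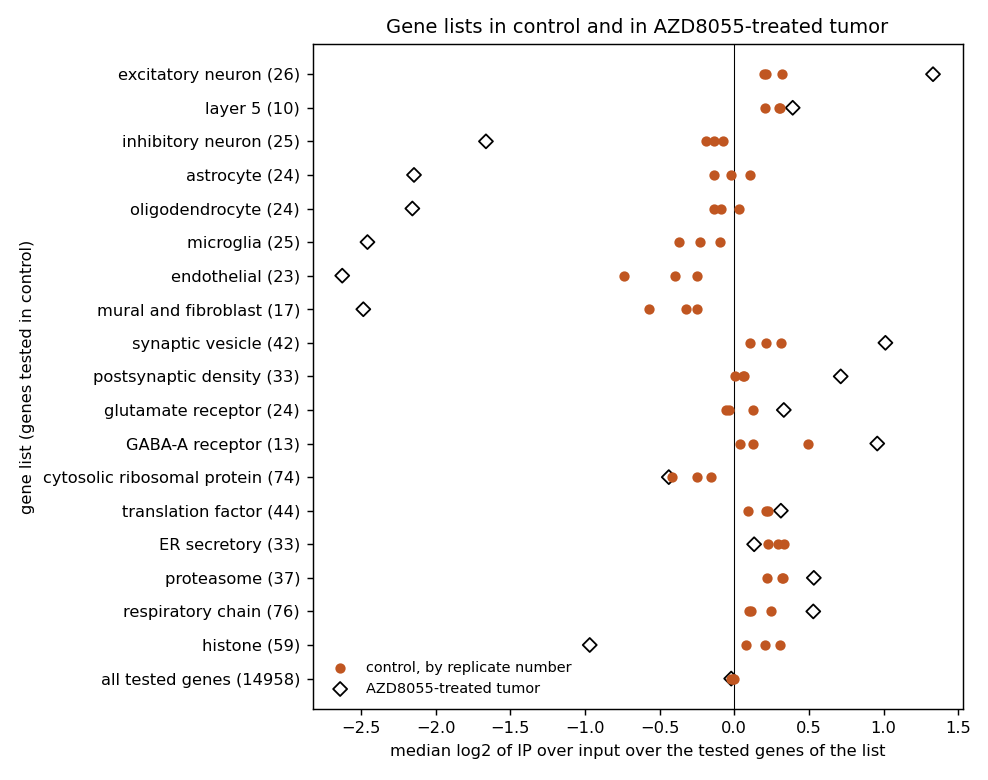
Median log2 of IP over input (x axis) over the tested genes of 18 gene lists and over all genes tested (y axis), for control by replicate number (3 orange points a list, from log2 of CPM plus 0.5) and for AZD (open diamond, from the fit). In control the excitatory neuron list lies above zero and the endothelial and mural lists below it at each of the 3 numbers, while the AZD medians of the glial and vascular lists lie at -2.15 or lower.

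Synaptic vesicle genes were higher in IP as a group. Of 42 genes 20 were higher and 3 lower (median log2 0.24), and the count higher was 10 without number 3, 13 without IP replicate 1 and 6 in the fit of all 18 libraries, while the count lower was 0 without input replicate 1, input replicate 2, IP replicate 3 or number 3. Sh3gl2 (endophilin A1), which acts in vesicle recycling, was at 123, 146 and 119 CPM in input and 243, 192 and 206 CPM in IP (log2 0.72 ± 0.10, adjusted p = 1.04e-04). Vamp2, the vesicle SNARE, was at 259, 314 and 248 CPM in input and 478, 419 and 391 CPM in IP (log2 0.65 ± 0.11, adjusted p = 2.62e-04). Syp (synaptophysin), an abundant vesicle membrane protein, rose with a log2 of 0.53 ± 0.098 (adjusted p = 7.30e-04). None of these 3 genes overlapped between fractions. Syn2 (synapsin II) had a log2 of 0.25 ± 0.096 and did not pass (adjusted p = 0.0526), though it passed with the block (adjusted p = 0.0262), without input replicate 1 (adjusted p = 0.043) and without IP replicate 3 (adjusted p = 0.0473).

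Postsynaptic genes were split. Of 33 genes of the postsynaptic density 7 were higher and 3 lower (median log2 0.05), against 17.9% and 18.9% of all genes. With the block 9 were higher and 7 lower, the count lower was 1 or 0 without input replicate 2, IP replicate 1, IP replicate 3, number 1 or number 3, and 3 were higher in the fit of all 18 libraries. Dlg3 (SAP102), a scaffold of glutamate receptors, was at 190.4, 198 and 192 CPM in input and 390.3, 299 and 378 CPM in IP (log2 0.88 ± 0.099, adjusted p = 1.18e-05). Homer1, a scaffold of metabotropic receptors, was at 358, 314 and 439.9 CPM in input and 641, 554 and 655 CPM in IP (log2 0.73 ± 0.12, adjusted p = 2.67e-04). Both scaffolds were higher in every IP library than in any input library. Kalrn and Dlg2, 2 other abundant postsynaptic genes, had log2 values of 0.01 ± 0.086 and 0.12 ± 0.085 and did not pass. Bdnf, a neurotrophin made by excitatory neurons, was at 26.9, 24.6 and 25.7 CPM in input and 50.9, 37.7 and 36.3 CPM in IP (log2 0.69 ± 0.12, adjusted p = 5.60e-04). Kif5a, a kinesin that carries cargo along axons and dendrites, fell instead, from 2793 ± 220.0 CPM in input to 1824 ± 96.7 CPM in IP (SD, n = 3; log2 -0.61 ± 0.094, adjusted p = 1.66e-04).

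Among 24 glutamate receptor genes 0 were higher and 3 lower, against 17.9% and 18.9% of all genes. DESeq2 called 3 higher and 3 lower, with the block 1 was higher and 7 were lower, and 5 were lower without IP replicate 2. Grin1, the obligatory subunit of NMDA receptors, was at 342, 329 and 290.0 CPM in input and 204, 167 and 172 CPM in IP. The ranges were far apart (log2 -0.82 ± 0.097, adjusted p = 1.74e-05), and in AZD the sign was opposite (log2 0.90 ± 0.16, adjusted p = 0.00148; test of the difference between the conditions, adjusted p = 6.72e-05). Gria2, an AMPA receptor subunit, had a log2 of 0.15 ± 0.094 and did not pass (adjusted p = 0.218).

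Of 13 GABA-A receptor genes 6 were higher and 1 lower (median log2 0.24), and 1 was higher in the fit of all 18 libraries. The medians by number were 0.50, 0.13 and 0.04, and without number 1 the median was 0.08. Gabrb2, a beta subunit, was at 613, 709.9 and 772 CPM in input and 989.8, 923 and 873 CPM in IP, with no overlap between fractions (log2 0.41 ± 0.099, adjusted p = 0.00441). Its call was lost in the fit of all 18 libraries (adjusted p = 0.204).

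Ion channel genes went both ways. Of 78 potassium channel genes 15 were higher and 7 lower, against 17.9% and 18.9% of all genes. The count higher was 23 with the block, 8 without input replicate 2, 9 without IP replicate 3, 7 without number 2 or with plain totals, 4 without number 3 and 5 in the fit of all 18 libraries. Kcnt1, a sodium-activated potassium channel, was at 143, 148 and 148 CPM in input and 76.3, 91.0 and 73.4 CPM in IP (log2 -0.87 ± 0.090, adjusted p = 5.52e-06). Kcnmb4, the neuronal beta subunit of BK channels, was at 43.8, 36.5 and 36.7 CPM in input and 23.1, 21.2 and 18.9 CPM in IP (log2 -0.89 ± 0.10, adjusted p = 1.66e-05). Both lay lower in every IP library. Kcnk2 (TREK-1), a leak channel, rose with a log2 of 0.49 ± 0.081 (adjusted p = 3.18e-04). Of 26 sodium and calcium channel genes 3 rose and 3 fell. With the block 5 fell, without IP replicate 2 5 fell, without number 3 1 fell, and without input replicate 2 or number 2 1 rose. Cacna1h, a T-type calcium channel, was at 102, 92.5 and 100.2 CPM in input and 53.1, 57.5 and 51.8 CPM in IP (log2 -0.86 ± 0.082, adjusted p = 2.15e-06). Cacnb4, an auxiliary calcium channel subunit, was at 335, 441 and 515 CPM in input and 765, 724 and 775 CPM in IP (log2 0.81 ± 0.13, adjusted p = 3.83e-04). The pore subunit gene lay lower and the auxiliary subunit gene higher in every IP library.

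Cytosolic ribosomal protein mRNAs were lower in IP. Of 74 such genes tested 36 were lower and 0 higher (median log2 -0.24; -0.41, -0.25 and -0.16 by number), and 23 were lower in the fit of all 18 libraries. Ribosomal protein mRNAs carry a 5' terminal oligopyrimidine tract, and mTOR signalling is known to set how much of them sits on ribosomes. Rpl39 was at 65.6, 56.2 and 69.0 CPM in input and 22.2, 21.97 and 22.4 CPM in IP, 2.87-fold lower (log2 -1.52 ± 0.093, adjusted p = 1.61e-08). Rpl38 was at 72.4, 57.6 and 62.6 CPM in input and 32.8, 27.6 and 29.3 CPM in IP (log2 -1.10 ± 0.10, adjusted p = 1.45e-06). Rps24 and Rpl32 fell with log2 values of -1.03 ± 0.090 and -1.05 ± 0.10 (adjusted p = 9.89e-07 and 2.71e-06). The 4 genes had no overlap between fractions, and each IP range was narrow. The most abundant members that did not pass were Rpl4 and Rpl3, with log2 values of 0.11 ± 0.092 and -0.04 ± 0.090. Ribosomal protein genes have many processed pseudogene copies, and how reads with several matches were counted is not given in the sources used here.

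Translation factors leaned the other way. Of 44 genes 16 were higher and 1 lower (median log2 0.19), and 10 were higher in the fit of all 18 libraries. Eif1, which guides start codon choice, was at 41.3, 40.9 and 39.0 CPM in input and 65.2, 59.9 and 59.1 CPM in IP (log2 0.60 ± 0.082, adjusted p = 5.79e-05). Etf1 (eRF1), the release factor that reads stop codons, was at 108, 112 and 121 CPM in input and 179, 157 and 165 CPM in IP (log2 0.56 ± 0.084, adjusted p = 1.46e-04). Every IP library exceeded every input library for both. Tpt1 and Eif4b also rose, with log2 values of 0.48 and 0.44 (adjusted p = 4.11e-04 and 8.60e-04). The elongation factors Eef1a1 and Eef2 had log2 values of -0.11 ± 0.097 and -0.09 ± 0.088 and did not pass. Of 20 tRNA synthetase genes 4 rose and 4 fell, near the 17.9% and 18.9% of all genes, and 2 rose without IP replicate 1 and 1 without number 3. Eprs, the synthetase for glutamate and proline, fell with a log2 of -0.53 ± 0.089 (adjusted p = 3.54e-04).

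Proteasome genes were higher in IP, with 21 of 37 higher and 0 lower (median log2 0.28). The count higher was 13 with plain totals and 11 without number 3. Psmd11, a lid subunit, was at 26.9, 32.1 and 29.0 CPM in input and 52.0, 50.8 and 51.9 CPM in IP (log2 0.81 ± 0.088, adjusted p = 8.04e-06). Psma6, an alpha ring subunit of the core, was at 66.4, 64.1 and 60.7 CPM in input and 101, 89.9 and 94.9 CPM in IP (log2 0.58 ± 0.081, adjusted p = 7.48e-05). Neither gene overlapped between fractions. Psmd2, a base subunit, had a log2 of 0.18 ± 0.087 and did not pass (adjusted p = 0.129).

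Genes of the secretory pathway behaved similarly in number. Of 33 genes 18 were higher and 2 lower (median log2 0.28), with 0 or 1 lower in all fits without a library or number other than input replicate 3. Pdia3, a disulfide isomerase of the endoplasmic reticulum, was at 75.7, 88.4 and 82.5 CPM in input and 186, 151 and 166 CPM in IP, 2.04-fold higher (log2 1.03 ± 0.094, adjusted p = 1.56e-06). Pdia6, a related isomerase, rose with a log2 of 0.58 ± 0.083 (adjusted p = 1.01e-04). Srp68, part of the signal recognition particle, rose with a log2 of 0.57 ± 0.100 (adjusted p = 5.07e-04). Ppib (cyclophilin B), a proline isomerase of the same compartment, fell instead. It was at 70.0, 61.1 and 69.3 CPM in input and 18.5, 17.9 and 18.7 CPM in IP, 3.63-fold lower (log2 -1.86 ± 0.088, adjusted p = 1.16e-09), and its IP libraries lay within a narrow range far below input.

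Genes of energy metabolism rose more often than they fell. Of 76 nuclear genes of the respiratory chain 28 were higher and 5 lower (median log2 0.14), and 17 were higher without number 2 or with plain totals and 16 without number 3, where 3 were lower. Ndufa9, a complex I subunit, was at 91.8, 82.7 and 78.8 CPM in input and 138, 127 and 133 CPM in IP (log2 0.65 ± 0.084, adjusted p = 3.69e-05). Sdha, the flavoprotein of complex II, rose with a log2 of 0.51 ± 0.085 (adjusted p = 3.38e-04). Of 22 glycolysis genes 10 rose and 1 fell, with 6 higher without number 2 and 5 without number 3 or in the fit of all 18 libraries. Pgk1, phosphoglycerate kinase, was at 90.5, 81.9 and 79.2 CPM in input and 134, 115 and 129 CPM in IP (log2 0.59 ± 0.087, adjusted p = 1.20e-04). Mpc1, a mitochondrial pyruvate carrier subunit, was the member of the glycolysis list that fell (log2 -0.85 ± 0.11, adjusted p = 3.77e-05). Of 18 V-ATPase genes, the proton pump of synaptic vesicles and lysosomes, 7 rose and 1 fell, with 3 or 4 higher in all fits without a library or number other than input replicate 1 and IP replicate 2, and 3 with plain totals or in the fit of all 18 libraries. Atp6v1b2, the brain form of the B subunit, was at 606 ± 39.3 CPM in input and 909.5 ± 98.1 CPM in IP (SD, n = 3; log2 0.59 ± 0.097, adjusted p = 3.04e-04). Of 76 mitochondrial ribosomal protein genes 19 rose and 4 fell, with a median log2 of 0.06. The count that rose was 4 without number 3, 9 without IP replicate 1, 11 without IP replicate 3, 12 without input replicate 2, 6 with plain totals and 10 in the fit of all 18 libraries.

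Histone mRNAs, of which 59 were tested, included 14 that rose and 0 that fell (median log2 0.24), against 17.9% and 18.9% of all genes. The count that rose was 9 without input replicate 2, IP replicate 3 or number 2 or with plain totals, 7 without number 3 and 6 in the fit of all 18 libraries. H3f3a, a replication-independent H3.3 gene, was at 18.9, 16.2 and 20.2 CPM in input and 28.8, 27.0 and 34.8 CPM in IP (log2 0.71 ± 0.12, adjusted p = 2.68e-04). Of 30 immediate-early genes 4 rose and 1 fell. With the block 7 rose and 9 fell, and 4 fell without input replicate 3 or number 3, 3 without IP replicate 2 and 0 without input replicate 1, input replicate 2 or IP replicate 3. Arc, a plasticity gene whose mRNA travels to dendrites, varied widely between numbers, at 163, 88.2 and 65.0 CPM in input and 99.9, 56.3 and 39.4 CPM in IP. Each IP library lay below the input library of the same number while the ranges overlapped, and Arc did not pass (log2 -0.69 ± 0.54, adjusted p = 0.396) but passed with the block (adjusted p = 1.04e-06).

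Summed levels of several kinds of RNA that do not code for protein were lower in IP, while calls among long noncoding RNAs went both ways. Small nucleolar RNAs (snoRNAs) guide chemical changes of ribosomal RNA in the nucleolus, and those of Cajal bodies (scaRNAs) do so for spliceosomal RNA; neither kind is translated. Over all 110 snoRNA symbols of the table the summed level was 328, 179 and 235 CPM in input and 12.97, 31.1 and 33.7 CPM in IP, a ratio of 9.53 between the means. The lowest input library was well above the highest IP library. Of the 110, 38 were tested, and 35 of those reached the cutoff of the filter (0.489 CPM) in every input library but not in every IP library, so their share of calls is not read as support. A large part of the summed input level came from Snord15b, a box C/D snoRNA, so the ratio leans on this symbol. Snord15b was at 166, 89.0 and 133 CPM in input and 0.311, 7.49 and 8.62 CPM in IP. It passed the filter only through the input libraries, so no test is given for it. The IP value of replicate 1 was far below the other 2. Scarna6, a small Cajal body RNA, was at 31.4, 12.997 and 17.8 CPM in input and 1.90, 1.77 and 3.01 CPM in IP (log2 -3.20 ± 0.44, adjusted p = 0.00377). Snord91a was the snoRNA that lay higher in IP, at 0.124, 0.109 and 0.299 CPM in input and 3.24, 2.57 and 3.40 CPM in IP. It passed the filter only through the IP libraries, so no test is given for it.

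Host genes that carry snoRNAs in their introns were lower too. Of 11 tested, all of which reached the cutoff in every IP library, 7 were lower and 0 higher (median log2 -1.10). Gas5, a host whose RNA is spliced and exported, was at 92.6, 81.9 and 78.0 CPM in input and 25.1, 35.3 and 34.7 CPM in IP (log2 -1.41 ± 0.12, adjusted p = 3.19e-06). Snhg6 had a log2 of -1.10 ± 0.15 (adjusted p = 5.12e-05). Snhg11, the most abundant host, was at 1119.8, 1431 and 1533 CPM in input and 92.7, 563 and 447 CPM in IP. Here IP replicate 1 was far below the other IP libraries and the gene did not pass (log2 -1.89 ± 0.74, adjusted p = 0.123). Without that library the log2 was -1.43 and the adjusted p 2.47e-05. With it kept, Snhg11 passed by DESeq2 (adjusted p = 0.0283) and in the fit of all 18 libraries (adjusted p = 0.0219).

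IP replicate 1 was also the lowest IP library for abundant nuclear noncoding RNAs. Malat1, a nuclear RNA and the most abundant transcript of 5 of the 6 libraries, was at 11160.3, 15464 and 15419 CPM in input and 3599, 9072 and 6706 CPM in IP, with the lowest value in IP replicate 1. All IP values were below all input values, yet Malat1 did not pass (log2 -1.12 ± 0.39, adjusted p = 0.0871). It passed with the block (adjusted p = 9.22e-06) and without IP replicate 1 (log2 -0.83, adjusted p = 0.00831). With that library kept, it also passed by DESeq2 (adjusted p = 0.0158), in the fit of all 18 libraries (adjusted p = 0.0103) and without IP replicate 2 (adjusted p = 0.0253). Meg3, an imprinted nuclear RNA of neurons, was at 1464, 2055 and 1850.0 CPM in input and 164, 1041 and 746 CPM in IP. It did not pass (log2 -1.46 ± 0.74, adjusted p = 0.205) and passed without IP replicate 1 (adjusted p = 0.00357). Rian, which lies next to Meg3, was at 575, 578 and 710.4 CPM in input and 188, 249 and 264 CPM in IP (log2 -1.41 ± 0.13, adjusted p = 6.15e-06). Of 18 long noncoding RNAs of the list 7 were lower and 1 higher, and 11 were lower without IP replicate 1 and 12 without number 1. The member that rose was Peg13, an imprinted RNA made in brain (log2 0.41 ± 0.082, adjusted p = 0.00127; 0.0505 in the fit of all 18 libraries). Across all 542 genes that RefSeq classes as long noncoding RNA, 58 (10.7%) were higher and 156 (28.8%) lower, against 2604 (18.4%) and 2531 (17.9%) of 14160 protein-coding genes.

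**Figure D4:**
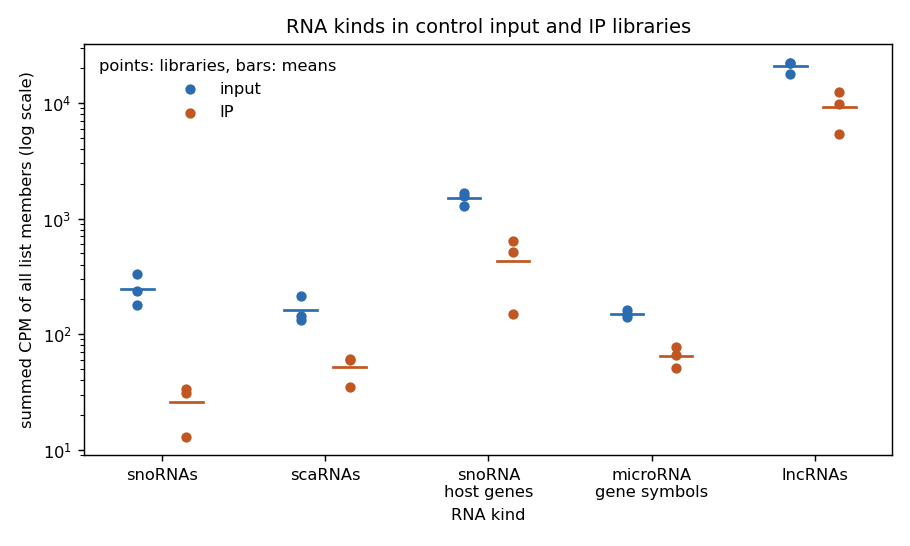
Summed CPM (log scale) over all members in the table of 5 RNA kinds, in each control input library (blue) and IP library (orange), with bars at the means. The input and IP ranges do not overlap for any of the 5 kinds, and the lowest IP point of the snoRNAs, host genes and lncRNAs stands apart from the other IP points.

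Counts assigned to microRNA genes were lower in IP as well. A microRNA locus is first transcribed as a long nuclear precursor, and these libraries were made with a kit for long RNA, so the counts are of reads over the locus and do not measure the mature microRNA. RefSeq lists 624 of the symbols as microRNA loci, 56 of them between the start of Meg3 and the end of Mirg, in the imprinted cluster of chromosome 12 (GRCm38, chr12:109540996-109749458). Over those 56 the summed level was 51.1 ± 4.74 CPM in input and 6.05 ± 4.78 CPM in IP (SD, n = 3), 8.45 times lower. Over the other 568 loci it was 65.4 ± 8.24 CPM in input and 25.1 ± 10.2 CPM in IP, 2.61 times lower. Mirg, the host transcript at the end of the cluster, was at 25.2, 23.3 and 24.4 CPM in input and 0.778, 3.23 and 2.91 CPM in IP (log2 -3.44 ± 0.44, adjusted p = 0.0031; 0.0702 without number 3).

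The mature microRNAs of 6 loci are printed here to identify loci that rank high by these counts. They were chosen after their values were seen, as those lower in IP in both control and AZD with the most control input counts. Sequences are from RefSeq (GRCm38.p6), 5' to 3', with the seed, bases 2 to 8, in capitals.
mmu-miR-1188-3p: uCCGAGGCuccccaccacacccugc
mmu-miR-1188-5p: uGGUGUGAgguugggccagga
mmu-miR-453: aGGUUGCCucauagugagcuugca
mmu-miR-3064-3p: uGCCACACugcaacaccuuaca
mmu-miR-3064-5p: uCUGGCUGuuguggugugcaaa
mmu-miR-134-3p: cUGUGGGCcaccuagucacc
mmu-miR-134-5p: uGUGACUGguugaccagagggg
mmu-miR-541-3p: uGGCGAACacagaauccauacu
mmu-miR-541-5p: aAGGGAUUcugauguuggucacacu
mmu-miR-382-3p: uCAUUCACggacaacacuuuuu
mmu-miR-382-5p: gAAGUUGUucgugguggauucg
The 11 mature forms have 11 different seeds. Among the 57 microRNA loci tested, of which 56 matched a mature sequence, 6 seeds were shared by 2 loci each, such as the 5p seed of Mir9-1 and Mir9-2.

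Mir453 (chr12:109735619-109735700) and Mir541 (chr12:109742409-109742498) lie inside the Mirg gene, and Mir1188 (chr12:109611822-109611941) inside Rian, all on the plus strand. Mir134 (chr12:109734139-109734209) and Mir382 (chr12:109733771-109733846) lie before the annotated start of Mirg and inside no other gene of the RefSeq table. Mir3064 (chr11:106782693-106782759, minus strand) lies inside Ddx5, an RNA helicase gene. How reads over such overlapping genes were divided is not stated in the sources used here. Mir453 had 42, 51 and 84 counts in the control input libraries and 1, 7 and 10 in the deeper IP libraries. Mir541 had 31, 44 and 34 counts in input and 0, 6 and 3 in IP. In both, IP replicate 1, the deepest of the 6 libraries, had the fewest counts. Both loci passed the filter only through the input libraries, as did 57 of the 62 microRNA symbols tested, so no test is given for them. Mir3064, in the coding gene Ddx5, reached the cutoff in all 6 libraries and had 34, 73 and 62 counts in input and 25, 39 and 50 in IP. It was chosen for being called lower, so no test is given for it either. Of the 5 microRNA symbols that reached the cutoff in every IP library, 1 was lower and 0 higher, against 18.9% and 17.9% of all genes.

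The largest differences toward IP lay in genes that were nearly absent from the input libraries. Cdr1, a gene whose locus also gives a circular RNA from the opposite strand, had 1, 0 and 1 counts in input and 3556, 2987 and 2423 in IP. How strand was used in counting is not given in the sources used here, so the 2 RNAs cannot be told apart. Hipk4, a protein kinase gene, had 0, 2 and 1 counts in input and 1297, 886 and 1168 in IP. Klhl34, a BTB-Kelch gene, had 7, 5 and 5 counts in input and 2285, 1518 and 1765 in IP. In tumor input, which shares library set PD013, the 3 libraries together held 1 count for Cdr1 and 9 for Hipk4. In AZD input, of library set PD028, they held 4274 and 1060 counts, and in AZD IP 2295 and 2446. Cdr1 and Hipk4 were thus near 0 in the inputs of set PD013 and in no other of these groups, and fraction and library set cannot be told apart for them. Whether the same annotation was used to count all 3 library sets is not stated in the sources used here.

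By median level, the genes at least 4-fold higher in control IP showed the same pattern as a set. There were 118 of them (0.789% of genes tested), with a median level of 0.109 CPM in control input, 0.0993 CPM in tumor input, 2.50 CPM in control IP and 2.28 CPM in AZD input (18-library scaling). In 116 of the 118 the AZD input mean exceeded 0.25 times the control IP mean. The same held for 184 of 190 genes at least 4-fold lower in control IP, so this count does not set the 118 apart. The share over all genes was not computed. Their control input median lies below the cutoff of the filter, so many entered the test through the IP libraries, and their calls in control are not read as support. The 190 genes at least 4-fold lower in control IP (1.27%) had medians of 1.80 CPM in control input, 1.69 CPM in AZD input and 0.242 CPM in control IP. Of the 190, 79 were snoRNAs, scaRNAs or microRNA genes, which mostly entered the test through the input libraries. Sco2, a copper chaperone of cytochrome oxidase, was singled out after its values were seen: it had 168 counts over the 3 control input libraries, 356 over the tumor inputs and 0 in every IP and AZD library. Against a floor of 3 counts over the IP group it was at least 91.1-fold lower in control IP.

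Other genes named for a high log2 were measured well in both fractions. Nme7, a member of the nucleoside diphosphate kinase family, was at 21.4, 19.7 and 21.7 CPM in input and 124, 116 and 116 CPM in IP, 5.68-fold higher (log2 2.51 ± 0.086, adjusted p = 2.19e-11). Ywhae, the epsilon form of 14-3-3 proteins, was at 226, 325 and 250.4 CPM in input and 684, 646 and 640.3 CPM in IP (log2 1.30 ± 0.12, adjusted p = 2.30e-06). Dynll2, a dynein light chain, rose with a log2 of 1.32 ± 0.23 (adjusted p = 0.00556), and the call was lost without number 1 (adjusted p = 0.068) or number 3 (adjusted p = 0.0603). Rab18, a small GTPase of lipid droplets and secretion, rose with a log2 of 1.17 ± 0.12 (adjusted p = 1.24e-05). All 4 were also higher in IP in AZD, with log2 values of 0.77, 1.04, 0.92 and 0.90. Of the 12 genes named for the highest log2, 8 were called in the same direction in AZD and 1 in the opposite direction. The larger set did not share this. Of 189 genes called at least 2-fold higher in control IP and tested in both, 38 (20.1%) were higher in AZD and 41 (21.7%) lower. Over all genes tested in AZD the shares were 28.9% and 32.4%. Of 587 genes at least 2-fold lower in control IP, 489 (83.3%) were lower in AZD and 11 higher.

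Col6a1, Col5a1 and Col16a1 were among the 12 genes named for the lowest log2. Col6a1, a chain of collagen VI, was at 113, 88.1 and 88.3 CPM in input and 11.9, 19.2 and 17.4 CPM in IP (log2 -2.58 ± 0.18, adjusted p = 2.42e-05). Col5a1 fell with a log2 of -2.57 ± 0.17 and Col16a1 with a log2 of -2.10 ± 0.13 (adjusted p = 5.75e-08 and 1.46e-08). Flna (filamin A), an actin crosslinker abundant in vessels, was at 137, 118 and 139.6 CPM in input and 27.7, 44.3 and 38.8 CPM in IP (log2 -1.84 ± 0.16, adjusted p = 3.72e-05). A lack of overlap between fractions was a condition for naming the collagen genes, so it is not read as support. Flna showed no overlap either. In AZD all 4 were lower too, with log2 values from -3.02 to -2.65. Others of the 12 lowest are not known as vascular genes. Rgs11, a regulator of G protein signalling, was at 30.05, 27.9 and 34.6 CPM in input and 2.33, 5.71 and 4.66 CPM in IP (log2 -2.89 ± 0.28, adjusted p = 3.62e-04). Leng8, a gene of mRNA processing, was at 170.4, 162 and 167 CPM in input and 14.96, 39.2 and 32.8 CPM in IP (log2 -2.53 ± 0.39, adjusted p = 0.00937; 0.0597 without number 2 and 0.126 without number 3). Rps6kb2, a ribosomal S6 kinase, fell with a log2 of -2.34 ± 0.14 (adjusted p = 1.17e-08). Rell2, a receptor-like membrane protein, Apex1, a DNA repair nuclease, and Lypd1, a modulator of nicotinic receptors, had log2 values of -2.17 ± 0.097, -2.24 ± 0.12 and -2.24 ± 0.097. In AZD the first 2 of these had opposite calls, with log2 values of 0.83 ± 0.31 and 0.48 ± 0.17 (adjusted p = 0.0422 and 0.0375), and Lypd1 did not pass (0.20 ± 0.16, adjusted p = 0.311).

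Marker genes of the cell types lay further apart in AZD than in control. Control and AZD share no library, and AZD input and IP belong to 1 library set. In AZD 9223 of 15040 genes (61.3%) were called, 4348 higher (28.9%) and 4875 lower (32.4%), against 5502 of 14958 (36.8%) in control. Of the 2673 genes higher in control IP and tested in both, 1750 (65.5%) were higher in AZD, which is 40.3% of the 4345 higher there, and 212 were lower. Of the 2744 genes lower in control IP, 1679 (61.2%) were lower in AZD, which is 36.8% of the 4568 lower there, and 148 were higher. The difference between the conditions was tested as a contrast in the fit of all 18 libraries, and 4930 of 16016 genes (30.8%) passed, 1862 higher in AZD (11.6%) and 3068 lower (19.2%). The count was 7603 with condition and number as a block, 1677 without number 2 and 2755 without number 3.

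Gene groups parted by cell type in that contrast. All 24 astrocyte genes had a lower log2 in AZD than in control by the contrast, with an AZD median of -2.15 against -0.03. Aqp4 had a log2 of -2.24 ± 0.094 in AZD, a difference from control of -2.23 ± 0.19 (adjusted p = 3.98e-07). Its level was 224 ± 12.2 CPM in AZD input and 46.7 ± 2.55 CPM in AZD IP (SD, n = 3; 18-library scaling). Among inhibitory neuron genes 16 of 25 were lower in the contrast and 0 higher, and Gad1 differed by -1.80 ± 0.33 (adjusted p = 8.57e-04). Among excitatory neuron genes 17 of 26 were higher in the contrast and 0 lower, with an AZD median of 1.33. Slc17a7 had a log2 of 1.37 ± 0.12 in AZD and differed by 1.28 ± 0.23 (adjusted p = 6.95e-04). Camk2a had a log2 of 1.43 ± 0.31 in AZD, and its difference of 0.70 ± 0.49 did not pass (adjusted p = 0.3). Of 59 histone genes 39 were lower in the contrast and 2 higher. Cytosolic ribosomal protein genes, by comparison, had an AZD median of -0.44, and 2 of 74 were higher and 1 lower in the contrast. AZD differs from control in tumor, treatment and library set at once, and treatment and library set cannot be told apart. In untreated tumor, which shares the library sets of control, the medians were -0.04 for astrocyte genes, -0.15 for inhibitory neuron genes and 0.33 for excitatory neuron genes. The cause of the AZD values was not tested.

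**Figure D5:**
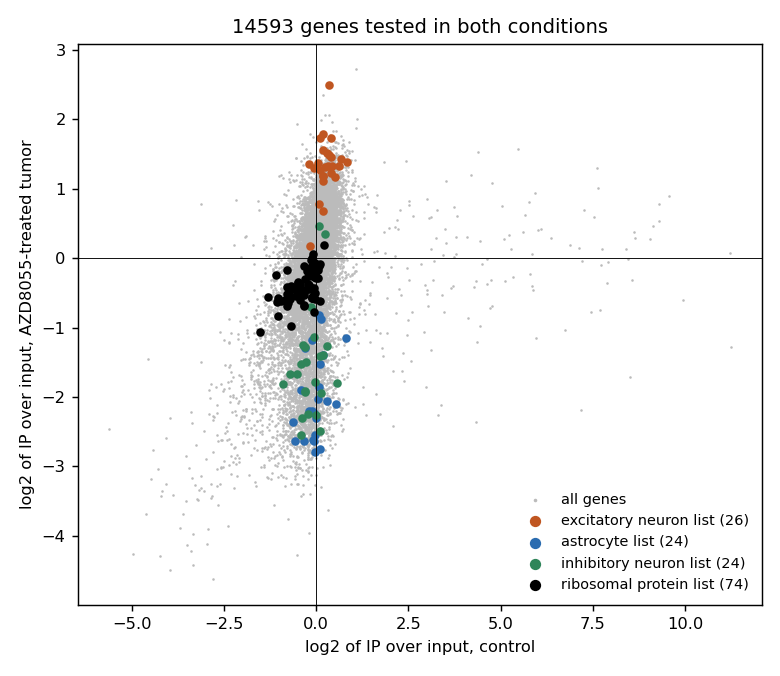
Log2 of IP over input in control (x axis) and in AZD (y axis) for the 14593 genes tested in both, with 4 gene lists coloured. Astrocyte genes (AZD median -2.15) and most inhibitory neuron genes (-1.66) lie near zero in control and far below it in AZD, excitatory neuron genes lie on the upper side (1.33), and the scattered genes far to the right in control lie around zero in AZD.

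The tumor libraries come from the same 2 library sets as control, and few genes passed the contrast between them. Of 16016 genes, 11 (0.0687%) differed between tumor and control, 8 higher in tumor (0.05%) and 3 lower (0.0187%). The count was 69 with condition and number as a block, 39 by DESeq2, 17 with plain totals, 3 without number 2 and 4 without number 3. Myh9, a nonmuscle myosin, had a log2 of -0.41 ± 0.079 in control and 1.56 in tumor, a difference of 1.95 ± 0.20 (adjusted p = 1.83e-04). Limch1, a regulator of that myosin, differed by 1.59 ± 0.22 (adjusted p = 0.00526), and Sptan1, the alpha chain of brain spectrin, by 1.57 ± 0.27 (adjusted p = 0.0373). Dst and Syne2, which link the cytoskeleton to junctions and to the nucleus, differed by 1.57 ± 0.19 and 1.28 ± 0.22. Within tumor alone 759 of 15245 genes (4.98%) were called, 315 higher (2.07%) and 444 lower (2.91%), and 5466 with the replicate number as a block. Of the 2662 genes higher in control IP and tested in both, 231 (8.68%) were called higher in tumor by the fit without the block. That is 88.2% of the 262 higher there, and 0 were called lower. Of 178 genes at least 2-fold higher in control IP, 124 (69.7%) were called higher in tumor. Of 610 at least 2-fold lower, 235 (38.5%) were called lower. Control and tumor log2 values correlated at 0.891 over 14677 genes, against 0.373 for control and AZD. How far the shared library sets enter this likeness was not tested.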

How the data were processed

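Per the labels' protocols, libraries were made with RNeasy Mini and NEBNext Ultra Directional kits from total (input) and immunoprecipitated polysomal (IP) RNA. The authors deposited raw read counts, 1 row a gene symbol. STAR, DESeq2 and mm10 are named in the submitters' processing notes; no counting tool, annotation or strand setting is given in the sources used here. Of 23420 symbols, 23260 (99.3%) matched RefSeq (GRCm38.p6).

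The 3 control IP libraries were compared with the 3 control inputs by edgeR 4.0.16 (R 4.3.3, limma 3.58.1): filterByExpr, TMM scaling, robust quasi-likelihood test, Benjamini-Hochberg over all genes, threshold 0.05, without a replicate block. AZD and tumor were fitted alike, and contrasts between conditions came from 1 fit of all 18 libraries. Deviations from group means correlated at 0.319 to 0.351 (9928 genes) for same-numbered control libraries, and at -0.323 to 0.0622 for others. In tumor the values were 0.677 to 0.902 for the same number and -0.752 to 0.464 for others. In AZD they were 0.287 to 0.652 and -0.544 to 0.330, ranges that overlap. The numbers of the titles were taken to pair the samples, which the labels do not state. The fit with the block is given where it changes the call of a gene or moves a printed count of 2 or more by over 1.5 times.

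Named genes are the 12 highest and 12 lowest log2 values and the 6 smallest adjusted p per direction among called genes with a mean of at least 10 CPM, no overlap between fractions and 1 sign in all 3 pairs (leaving out unnamed models and small RNAs), 4 small RNAs by the same filters, up to 4 members of each list by adjusted p and 2 that did not pass by level, 6 per direction for each contrast, and Rpl22, Camk2a, Slc17a7, Gad1, Gad2, Aqp4, Mbp, Pdgfra, C1qa, Cldn5, Malat1 and Xist. Some genes that the rule names are not reported here. The members and the lists were chosen with earlier results of these data known. Alternatives were other scalings (RLE, upper quartile, plain totals), DESeq2 1.42.0, other filters, the block, the fit of all 18 libraries and each library or number left out. Tested on simulated data for control (14823 genes), the procedure recovered 74% of 50 genes changed 1.5-fold and 89% of 100 changed 2-fold, with 7.3% false calls. For the AZD contrast (15916 genes) it recovered 42% of 200 genes changed 2-fold. Counting intervals cover counting error only, since reads have no molecular identifiers.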

Additional observations from a re-analysis of the deposited data

Results flagged for a closer look

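Differences of IP over input that differed between AZD and control, tested as a contrast in the fit of all 18 libraries, were found for 4930 genes. Among genes at 10 CPM or more, the log2 difference was higher in AZD by 2.97 for Rell2, by 2.68 for Apex1, by 2.40 for Lypd1, by 2.22 for Clvs1, by 2.21 for Thyn1 and by 2.13 for Nptxr. It was lower in AZD for Cdr1 (-12.57), Ccdc73 (-11.17), Hipk4 (-8.55), Klhl34 (-6.37), Nusap1 (-3.61) and Cd9 (-3.40). Cdr1, Ccdc73, Hipk4 and Klhl34 were near 0 counts in control input, so these sizes depend on the prior count of the fit. Library set and condition cannot be told apart in this contrast.

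By gene list, 17 excitatory neuron genes had a higher difference in AZD than in control, and a lower one was found for 16 inhibitory neuron genes and 24 astrocyte genes. Of the histone genes, 39 had a lower and 2 a higher difference in AZD.

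Between tumor and control 11 genes differed. The log2 difference was higher in tumor by 1.95 for Myh9, by 1.88 for Gtl3, by 1.59 for Limch1, by 1.57 for Sptan1, by 1.57 for Dst and by 1.28 for Syne2, and it was lower for Ccdc167 (-0.76).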

How the results depend on the processing

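Over 18 alternatives, the 273 named genes kept their direction wherever they were called: none reversed. Requiring a fold of at least 1.5 took away 69 of their calls. Among the other alternatives with all libraries in, 60 lost and 31 gained a call under at least 1, and 35 lost and 30 gained one when a library or number was left out. Plain totals gave 1721 genes higher in control IP, and the fit of all 18 libraries gave 1866 lower. Requiring a fold of at least 1.5 left 2005 genes, 548 higher and 1457 lower. Leaving out a library or a number gave 3424 to 5170 genes in all, 1667 to 2583 higher and 1757 to 2713 lower, and the lowest counts came without number 3. Upper-quartile scaling gave 2212 higher and 3224 lower, 40.7% higher among called genes. Tumor alone had 759 calls, 1665 by DESeq2 and 5466 with the replicate block. The AZD contrast had 4930 calls, 7603 with the replicate block and 1677 to 3331 without a number. The tumor contrast had 11 calls, 17 with plain totals, 39 by DESeq2, 69 with the replicate block and 3 to 15 without a number. The replicate block also took away the calls of Vcan, Lime1 and Scarna10 (adjusted p = 0.127, 0.0889 and 0.124), among others, and added 21 named genes. The cause of these changes was not tested. Low counts limit the small RNAs: with a mean of at least 5 CPM required, 3 snoRNAs and 0 microRNA genes were called lower.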
